A study of Homo sapiens with 12 samples.

Results

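mRNA abundance was compared between EXOSC5-KO and NUP93-KO U2OS cells, both without drug. A subunit of the RNA exosome was targeted in EXOSC5-KO and a nuclear pore protein in NUP93-KO. The members were the 4 libraries labelled as untreated EXOSC5 or NUP93 knockout, 2 replicates of each, out of 12 libraries in the series, and they were chosen by these labels alone. U2OS is an established human osteosarcoma cell line. The sample titles call these cells untreated and the treatment label names DMSO, the drug's solvent, for 8 h. The other libraries, used where stated, were 2 untreated libraries with a nontargeting guide (NONT) and 2 libraries of each of the 3 genotypes after 8 h of 1 μM triptolide, which blocks the start of transcription by RNA polymerase II. All cells, NONT included, received Cas9, a guide RNA and puromycin resistance from 1 plasmid by transient transfection and were then selected. Each arm was therefore a pool of edited and possibly unedited cells from 1 guide and not a clone. Both arms compared here were cut by Cas9 at 1 intended site, whereas NONT has no intended site. The labels do not say whether replicates came from separate transfections, so p-values measure the spread between these libraries, which may be technical.

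The RNA exosome is a ring-shaped complex that degrades RNA from the 3′ end. In the nucleus it trims ribosomal and small RNAs and removes promoter upstream transcripts, enhancer RNAs and transcripts that end too early, and in the cytoplasm it takes part in mRNA turnover. EXOSC5 is a subunit of the ring. NUP93 is a scaffold protein of the inner ring of the nuclear pore complex, the channel through which mRNAs leave and proteins enter the nucleus, and it holds NUP188, NUP205, NUP155 and NUP35 in place. The comparison therefore sets a knockout aimed at an RNA decay machine against one aimed at a pore scaffold in the same cell line.

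The 2 guides define the arms and are shown 5′ to 3′ in lower case, with the adjacent genomic PAM in capitals. Each guide with its PAM had 1 perfect match on the assembled chromosomes of GRCh38.
EXOSC5 guide: gaagttcttaccttgcaggaAGG
NUP93 guide: gaacttacaggagatccagcAGG
The EXOSC5 guide matched the plus strand of chromosome 19 from 41397170 to 41397189, opposite to the gene's own strand. Its 20 bases spanned the border of exon 1 and intron 1, with 9 bases in exon 1 of the 6 exons, and the cut was expected after base 41397186, inside the exon. The NUP93 guide matched the plus strand of chromosome 16 from 56748340 to 56748359, and all 20 bases lay in exon 2 of 22.

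The deposited values were a spike-in scaled signal per gene, meant to follow mRNA per counted cell. Values of all genes summed to 14402951 and 13408499 in EXOSC5-KO and to 12003656 and 13247730 in NUP93-KO. The means were 13905725 ± 703184 and 12625693 ± 879693 (SD, n = 2), a ratio of 1.10, and the groups did not overlap (two-sided exact permutation test, p = 0.333, the smallest that 2 against 2 libraries allow). The median gene was higher in EXOSC5-KO by 0.15 on the log2 scale, and the 4 pairings of an EXOSC5-KO with a NUP93-KO library gave 0.02 to 0.27. Taking the most frequent low value of each library as 1 read, depth was about 9280000 to 10600000 reads in the 4 libraries. The NONT replicates were less even, with a median log2 difference of −0.51 between replicate 1 and replicate 2, against 0.11 for EXOSC5-KO and −0.14 for NUP93-KO. Because such shifts move all genes of a library together, each difference was also computed after rescaling every library to the same total. Single genes are given on the spike-in scale, and members of the later gene lists at the same total, unless stated. The same total set the median gene at 0.01. Scaling by the summed mitochondrial mRNAs instead set it at −0.29, so differences of whole lists are given relative to the median gene. In bulk RNA, fewer cells of a type and less RNA per cell cannot be told apart.

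The targeted genes were examined first. EXOSC5 (ENSG00000077348, chromosome 19, 41386371 to 41397362, minus strand) had values of 216 and 148 in EXOSC5-KO, 376 and 376 in the NUP93-KO libraries, and 299 and 481 in NONT. Both EXOSC5-KO libraries lay below all 4 others. The log2 difference between the knockouts was −1.07 ± 0.29 (SE) on the spike-in scale, which missed the threshold of 0.05 (limma adjusted p = 0.215), and −1.21 ± 0.19 at the same total, which passed it (limma adjusted p = 0.00811). NUP93 (ENSG00000102900, chromosome 16, 56730118 to 56850286, plus strand) had values of 1395 and 1432 where NUP93 was targeted, 1805 and 1618 where EXOSC5 was, and 1753 and 2489 in NONT. Both NUP93-KO libraries were the lowest of the 6, but the difference of 0.27 ± 0.20 did not pass on the spike-in scale (limma adjusted p = 0.805) or at the same total (0.13 ± 0.09, limma adjusted p = 0.523). Cas9 edits need not change an mRNA's level, and neither edit nor protein was measured in these files.

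A small set of transcripts was far more abundant in EXOSC5-KO than in NUP93-KO, and few were far less abundant. Of 13811 genes tested, 37 were higher (0.268%) and 3 lower (0.0217%) in EXOSC5-KO. The 37 differences ranged from 1.02 to 6.59 on the log2 scale, and 24 of them were at least 2. At an unadjusted p under 0.05 there were 925 higher and 169 lower genes. Most genes moved little, since 81.0% lay within 0.5 log2 units of the median gene. Rescaled to the same total, 210 genes were higher (1.52%) and 213 lower (1.54%), and 36 of the 37 higher and 2 of the 3 lower genes were among them. At the same total, leaving out EXOSC5-KO replicate 1 or 2 gave 59 or 39 higher and 70 or 49 lower genes, and leaving out NUP93-KO replicate 1 or 2 gave 72 or 87 higher and 51 or 72 lower. The direction split thus depended on the scale while the set of strongly raised genes hardly did. The 37 counts 1 pair of rows with identical values in every library, DYNLT2 and an ID with no matching symbol. Leaving out 1 untreated library at a time gave 7 to 76 higher and 2 to 5 lower genes on the spike-in scale. The low end came without EXOSC5-KO replicate 1 (7) or 2 (11), NUP93-KO replicate 1 gave 21, and leaving out NONT replicate 1 or 2, which enter only the estimate of the spread, gave 76 or 75.

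**Figure D1:**
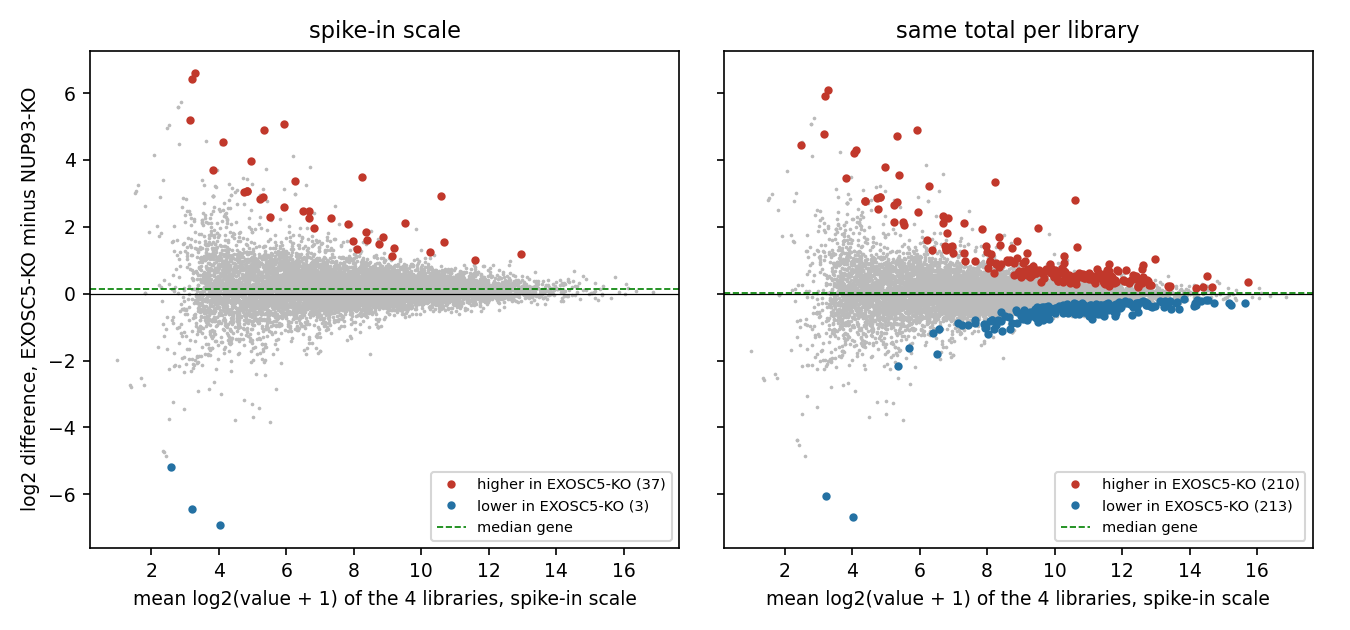
Log2 difference between untreated EXOSC5-KO and NUP93-KO for each of 13811 genes against its mean log2 level in the 4 libraries, on the spike-in scale (left) and at the same total per library (right). Coloured points passed a limma adjusted p of 0.05, and the dashed line is the median gene. The 37 higher genes at left reach 6.59, and some of them reached the low-value filter only through EXOSC5-KO. At right 210 genes are higher and 213 lower, with smaller differences at higher levels.

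A group among the raised genes were transcripts of the early embryo, which are normally switched on in the cleavage-stage embryo and are silent in most other cells. Not all were silent here, since RFPL4A and ANKRD30BL lay well above the low-value filter in NUP93-KO too. Of 45 genes listed, 32 were below the low-value filter and 13 were tested. Of those 13, 6 were higher in EXOSC5-KO and none lower, and at the same total 9 were higher and none lower. As a description, their median lay 4.32 log2 units above the median gene, the 4 pairings of libraries gave medians of 3.46 to 4.01, and 11 of 13 lay above it with both EXOSC5-KO libraries above both NUP93-KO libraries (39% of all genes). Several members, such as H3Y1, ZSCAN4, TAF11L11, TAF11L13, TAF11L14 and TRIM49C, were near 0 or at a few reads outside EXOSC5-KO. They reached the filter only through EXOSC5-KO, so they had to differ, and neither the counts nor the median are support of their own.

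TAF11L12 (ENSG00000249156, chromosome 5, 17610496 to 17611583), one of a tandem family of single-exon genes related to the general transcription factor subunit TAF11, had values of 390 and 314 in EXOSC5-KO, 10.4 and 8.71 in NUP93-KO, and 3.79 and 17.5 in NONT. The log2 difference between the knockouts was 5.06 ± 0.70 (limma adjusted p = 0.00299). Its expression stood apart in EXOSC5-KO, with no overlap, and NUP93-KO lay within the NONT range. H3Y1 (ENSG00000269466, chromosome 5, 17654868 to 17655849), which encodes a primate histone H3 variant, had values of 239 and 203 in EXOSC5-KO, 8.10 and 4.99 in NUP93-KO, and 2.85 and 1.76 in NONT. Its log2 difference was 4.91 ± 0.61 (limma adjusted p = 0.00133). Here too the EXOSC5-KO libraries were the high ones, and all 4 other libraries were at a few reads.

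The neighbouring copies followed. TAF11L13 had values of 88.2 and 80.9 in EXOSC5-KO and was listed at 0 in both NUP93-KO libraries (limma adjusted p = 0.00850). TAF11L14 had values of 64.9 and 43.5 against 1.15 and 0 (limma adjusted p = 0.0308). TAF11L11, at 30.6 and 28.9 against 0 in both, passed only at the same total (limma adjusted p = 0.0315, against 0.0784 on the spike-in scale). These near-identical copies share sequence, and how kallisto split reads between them is uncertain. ZSCAN4, a zinc finger protein that marks the embryo's first transcriptional wave, had values of 71.2 and 96.9 in EXOSC5-KO and 1.16 and 5.00 in NUP93-KO (log2 difference 4.55, limma adjusted p = 0.0175). ANKRD30BL had values of 551 and 400 in EXOSC5-KO, 109 and 112 in NUP93-KO and 70.8 and 95.0 in NONT (2.07, limma adjusted p = 0.0123). With triptolide ANKRD30BL rose in each genotype, to 2777 and 2475 in EXOSC5-KO, 865 and 752 in NUP93-KO and 482 and 173 in NONT. Why its signal rose with a drug that blocks transcription was not tested. TRIM49C, at 77.0 and 78.0 against 4.62 and 1.25, passed only at the same total (limma adjusted p = 0.0313, against 0.0516). RFPL4A, the most abundant member, had 2045 and 1910 in EXOSC5-KO against 1233 and 1226 and also passed only at the same total (0.54, limma adjusted p = 0.00505). TRIM43B, at 32.0 and 62.2 against 3.47 and 9.98, and TRIM48, at 18.9 and 30.4 against 8.09 and 4.99, passed on neither scale, although their arms did not overlap. Not all members were raised. KLF17, a Krüppel-like factor, had values of 6.73 and 2.68 in EXOSC5-KO against 13.9 and 8.12 (limma adjusted p = 0.783), and ZNF296 had overlapping groups.

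The promoters of H3Y1 and TAF11L12 are shown because both genes lie in the same cluster on chromosome 5, with TAF11L13 and TAF11L14 between them. All 4 passed the threshold. H3Y1, TAF11L13 and TAF11L14 reached the low-value filter only through EXOSC5-KO and had to differ, so their passing is no support. Both promoters are RefSeq sequences of GRCh38.p14, from 250 bases before to 50 after the annotated start. Capitals mark the longest ungapped stretch that these 2 promoters share with at most 1 differing base, TGGGTCTAATNCAATCATCTGAGCTC, where N is the base that differs.
H3Y1 promoter, chr5:17655800-17656099, minus strand: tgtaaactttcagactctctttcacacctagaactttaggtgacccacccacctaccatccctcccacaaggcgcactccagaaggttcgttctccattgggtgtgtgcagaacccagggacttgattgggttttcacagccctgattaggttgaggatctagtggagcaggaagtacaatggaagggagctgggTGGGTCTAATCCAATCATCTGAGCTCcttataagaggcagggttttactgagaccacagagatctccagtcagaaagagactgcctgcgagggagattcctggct
TAF11L12 promoter, chr5:17610142-17610441, plus strand: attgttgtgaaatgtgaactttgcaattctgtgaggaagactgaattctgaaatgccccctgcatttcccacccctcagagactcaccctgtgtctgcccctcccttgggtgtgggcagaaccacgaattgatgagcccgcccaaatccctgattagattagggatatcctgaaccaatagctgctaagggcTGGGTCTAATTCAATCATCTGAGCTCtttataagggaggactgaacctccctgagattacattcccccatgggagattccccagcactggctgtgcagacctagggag
The stretch of 26 bases was found, on either strand, in 3 of 35116 promoters (0.00854%). All 3 belonged to tested early embryo genes, namely H3Y1, TAF11L11 and TAF11L12, out of 12 such genes with a promoter sequence. TAF11L13, TAF11L14 and ZSCAN4 had no match in this window although all 3 passed the threshold. Since the stretch was taken from 2 of these promoters, and close copies share sequence, the count is a description and says nothing of a factor that binds there.

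PCSK5 gave the smallest adjusted p of all genes. PCSK5 (ENSG00000099139, chromosome 9, 75890644 to 76362975), a secretory proprotein convertase, had values of 4228 and 4314 in EXOSC5-KO, 465 and 674 in NUP93-KO, and 330 and 520 in NONT. EXOSC5-KO exceeded NUP93-KO by a log2 difference of 2.93 ± 0.23 (limma adjusted p = 1.05e-05). The NUP93-KO libraries overlapped with NONT, and the EXOSC5-KO libraries lay far above both.

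PCF11 and RBBP6, which act in the cleavage and polyadenylation of pre-mRNA, were both raised. PCF11 (ENSG00000165494, chromosome 11, 83156988 to 83187451), a component of cleavage factor II, had values of 1082 and 951 in EXOSC5-KO, 77.7 and 104 in NUP93-KO, and 84.9 and 159 in NONT (3.48 ± 0.33, limma adjusted p = 4.85e-05). RBBP6, a ubiquitin ligase of the same machinery that was named after its values were seen, had values of 1563 and 1476, 293 and 424, and 340 and 324 in the same order (2.10 ± 0.27, limma adjusted p = 0.00173). In each gene the 2 EXOSC5-KO libraries lay above the other 4, which overlapped with one another.

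Further genes at the top of the rule for naming had no evident common function. SULT1B1, a cytosolic sulfotransferase, had values of 159 and 94.1 in EXOSC5-KO against 9.10 and 5.12 in NUP93-KO (3.97 ± 0.58, limma adjusted p = 0.00490). POTEF, an ankyrin and actin fusion gene of a primate family with close copies, had 273 and 225 against 19.1 and 27.9 (3.37 ± 0.43, limma adjusted p = 0.00168). C11orf71, a single-exon gene, had 391.5 and 310 against 77.3 and 65.7 (2.27 ± 0.35, limma adjusted p = 0.00597). In none of these did the arms overlap, and NONT lay near NUP93-KO, at 6.05 and 5.59, 25.8 and 42.6, and 89.9 and 117 respectively. SULT1B1 reached the low-value filter only through EXOSC5-KO, so it had to differ. C8orf44-SGK3, a read-through that shares exons with SGK3, had 88.6 and 114 against 16.6 and 23.2 (limma adjusted p = 0.0332). NONT lay between the knockouts here, at 40.6 and 54.5. The log2 difference from NONT was 1.08 in EXOSC5-KO and −1.22 in NUP93-KO (limma adjusted p = 0.493 and 0.947). Reads of the overlapping genes cannot be told apart in these values.

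Several raised genes were higher by a smaller factor but at higher levels, and were named after their values were seen. LRRK1, a kinase of the family of LRRK2, had values of 12625 and 11471 in EXOSC5-KO against 5125 and 5537 in NUP93-KO (1.18 ± 0.21, limma adjusted p = 0.0212). EIF4G3, a translation initiation scaffold, had 680 and 766 against 238 and 273 (a ratio of means of 2.83, limma adjusted p = 0.0323). Neither gene's arms overlapped. MATR3, a nuclear matrix and RNA-binding protein, was listed under 2 gene IDs that overlap on chromosome 5. ENSG00000280987 had 3090 and 2479 against 743 and 1226 (1.54 ± 0.24, limma adjusted p = 0.00597), and ENSG00000015479 had 3865 and 3564 against 3926 and 4140 (−0.12 ± 0.21, limma adjusted p = 0.943). The difference was thus seen at 1 of the 2 annotated IDs, and reads shared between them cannot be assigned.

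**Figure D2:**
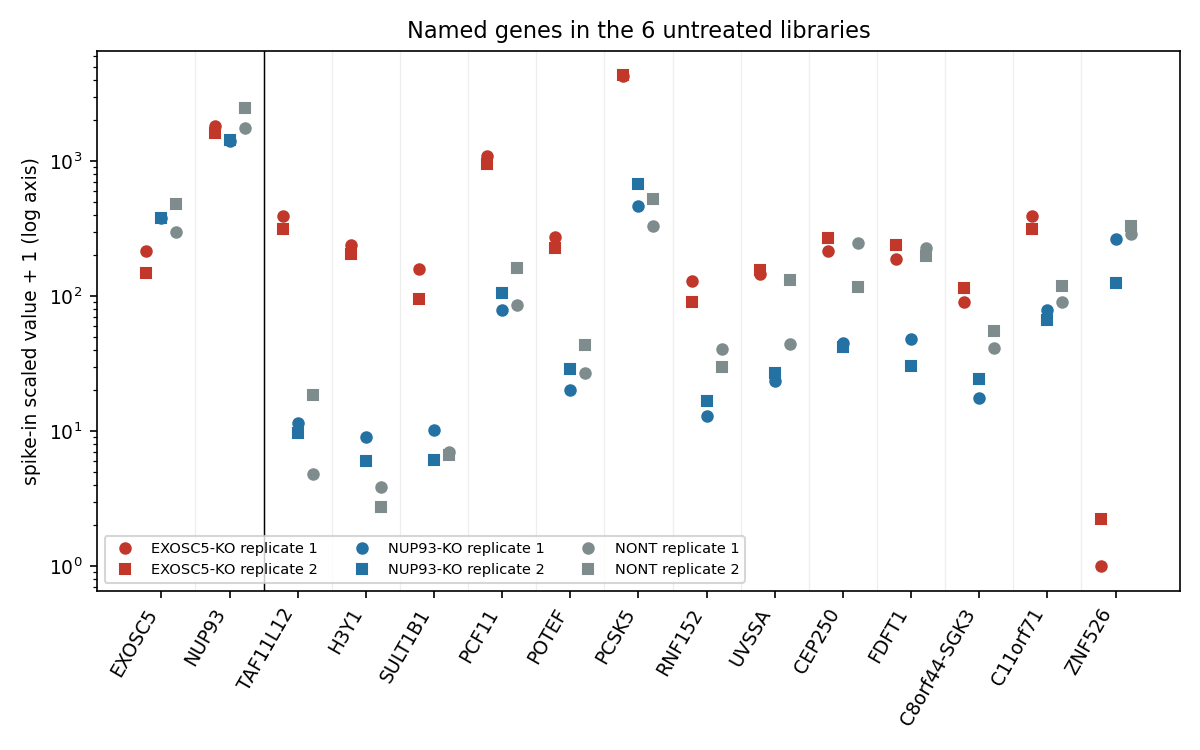
Spike-in scaled value plus 1, on a log axis, of the 2 targeted genes (left of the line) and of the 13 genes that the naming rule gave, in the 6 untreated libraries. Circles are replicate 1 and squares replicate 2 of EXOSC5-KO (red), NUP93-KO (blue) and NONT (grey). EXOSC5-KO stands apart for most of the raised genes, NUP93-KO is the low group for FDFT1 at 46.8 and 29.5, and ZNF526 is at 0 and 1.22 in EXOSC5-KO.

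Some genes called higher in EXOSC5-KO had NONT values near EXOSC5-KO or between the knockouts, and none of the NUP93-KO differences from NONT given here passed. FDFT1, the squalene synthase of the sterol pathway, had values of 186 and 236 in EXOSC5-KO, 46.8 and 29.5 in NUP93-KO, and 227 and 196 in NONT (2.46 ± 0.49, limma adjusted p = 0.0405). Its own log2 difference from NONT was −0.01 in EXOSC5-KO and −2.47 in NUP93-KO (limma adjusted p = 1.00 and 0.120), and the call between the knockouts was lost at the same total (limma adjusted p = 0.0585). CEP250, a centrosome linker protein, had 215 and 269 in EXOSC5-KO, 44.1 and 41.1 in NUP93-KO, and 246 and 115 in NONT (2.47 ± 0.43, limma adjusted p = 0.0175, and 0.199 for NUP93-KO against NONT). UVSSA, a factor of transcription-coupled repair, had 146 and 154, 22.3 and 25.8, and 43.5 and 131 in the same order (limma adjusted p = 0.0271, and 0.641 for NUP93-KO against NONT). RNF152, a lysosomal ubiquitin ligase, had 128 and 90.0, 11.9 and 15.6, and 39.6 and 28.7 (limma adjusted p = 0.0240, and 1.00 for NUP93-KO against NONT), so that NONT lay between the knockouts. In each of these 4 genes leaving out any 1 of the 4 knockout libraries ended the call, with limma adjusted p up to 0.299 for FDFT1, 0.185 for CEP250, 0.247 for UVSSA and 0.276 for RNF152.

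Other calls were also lost when 1 knockout library was left out. Such a fit leaves 1 library in an arm and a larger SE, so a lost call need not mean that 1 library drove it. Without EXOSC5-KO replicate 1 the call was lost for TAF11L12 (limma adjusted p = 0.0650), SULT1B1 (0.0745) and C11orf71 (0.0876, also lost without NUP93-KO replicate 2). TAF11L13 lost it without either EXOSC5-KO library (limma adjusted p up to 0.109), and MATR3 (ENSG00000280987) without EXOSC5-KO replicate 1 or NUP93-KO replicate 1 (up to 0.111 over all settings). TAF11L14, C8orf44-SGK3, LRRK1 and EIF4G3 lost it without any 1 of the 4 (limma adjusted p up to 0.285, 0.361, 0.209 and 0.288). H3Y1, PCF11, POTEF, PCSK5, RBBP6, ZNF268 and ZNF526 passed in all 19 alternatives run for them. H3Y1 reached the low-value filter only through EXOSC5-KO, so it had to differ and its passing adds no support.

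On the spike-in scale 3 genes were lower in EXOSC5-KO, against 213 at the same total. ZNF526 (ENSG00000167625, chromosome 19, 42220292 to 42228201), a zinc finger gene, had values of 0 and 1.22 in EXOSC5-KO, 263 and 123 in NUP93-KO, and 286 and 330 in NONT. Both EXOSC5-KO libraries were at about 1 read or none, and the fitted difference of −6.92 ± 0.60 on the log2(value + 1) scale (limma adjusted p = 1.81e-05) is set by the added 1. ZNF526 lies 0.823 Mb from the EXOSC5 cut, on the same chromosome. ZNF526 was the only gene called among the 41 tested genes within 1 Mb of the cut, whose median was −0.13 relative to the median gene. The 363 genes between the cut and the end of the long arm had a median of −0.01, relative to the median gene. For the 586 on the rest of the chromosome the median was −0.04. Why ZNF526 differed was not tested. On chromosome 16, the medians beyond and before the NUP93 cut were 0.05 (229 genes) and −0.03 (347 genes). PEDS1-UBE2V1, a read-through that overlaps PEDS1 and UBE2V1, was listed at 0 in both EXOSC5-KO libraries and at 15.0 and 82.5 in NUP93-KO (limma adjusted p = 0.0332), and its call was lost at the same total (limma adjusted p = 0.0574). It passed in 6 of 18 alternatives, failing also with the 4 libraries alone and without either EXOSC5-KO library, either NONT library or NUP93-KO replicate 2 (limma adjusted p up to 0.355). ENSG00000275568, which matched no symbol, was at 0 in both against 69.4 and 104, with 0 and 8.79 in NONT (limma adjusted p = 0.0175). That ID reached the low-value filter only through NUP93-KO, so it had to differ. Its call was lost without any 1 of the 4 knockout libraries (limma adjusted p up to 0.139).

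The remaining gene lists were written around the biology of the comparison. Values below are relative to the median gene on the spike-in scale, for which 50% of genes lie above 0. Counts of genes past the threshold refer to the same total unless stated, because on the spike-in scale these lists held almost none. At the same total, 1.52% of all genes were higher and 1.54% lower.

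Genes of cell division were among the lower ones in EXOSC5-KO. Of 39 mitosis genes, 14 were lower and none higher, against 1.54% of all genes lower, and the median was −0.38 (range over the 4 pairings −0.51 to −0.29). Only 1 member lay above the median gene. Even without rescaling, 24 of 39 (61.5%) had both EXOSC5-KO libraries below both NUP93-KO libraries, against 11.3% of all genes. None of the 39 passed on the spike-in scale. DEPDC1B, a gene of the G2 and M phases, had values of 172 and 184 in EXOSC5-KO, 288 and 384 in NUP93-KO, and 392.4 and 555 in NONT (−1.04 ± 0.14 at the same total, limma adjusted p = 0.00471). PLK1, a mitotic kinase, had 1913 and 1794, 2342 and 2592, and 2364 and 3500 in the same order (−0.55 ± 0.12, limma adjusted p = 0.0434). CCNB1, the cyclin of mitotic entry, had 3480 and 3635 against 3971 and 4786 (−0.43 ± 0.08, limma adjusted p = 0.0164). In all 3 the EXOSC5-KO libraries were the lowest of the 6.

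Of 51 DNA replication genes, 12 were lower and none higher, against 1.54% of all genes lower. Their median was −0.31 (pairings −0.36 to −0.27), with 7 above the median gene. MCM2, a subunit of the replicative helicase, had 2002 and 1889 in EXOSC5-KO against 2428 and 2789 in NUP93-KO (−0.56 ± 0.06, limma adjusted p = 0.00243). RRM2, the S-phase subunit of ribonucleotide reductase, had 4267 and 4163 against 5710 and 6214 (−0.64 ± 0.06, limma adjusted p = 0.00124). E2F1, a transcription factor of S-phase genes, had 566 and 565 against 844 and 866 (−0.73 ± 0.10, limma adjusted p = 0.00475). The arms did not overlap for any of the 3. The list's median was −0.36 for EXOSC5-KO against NONT and −0.07 for NUP93-KO against NONT, and that of the mitosis genes was −0.58 and −0.16.

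Histone genes were listed by type, and the 2 lists were not tested against each other. Of 11 replacement histones tested, which are made outside S phase too and carry poly(A) tails, 3 were lower and none higher. Of all genes 1.54% were lower. The median of these histones was −0.25. H2AX, the H2A variant phosphorylated at DNA breaks, had 1976 and 1620 in EXOSC5-KO against 2705 and 2795 in NUP93-KO (−0.76 ± 0.08, limma adjusted p = 0.00160). Of 67 replication-dependent histone genes, whose mRNAs normally end in a stem-loop without a poly(A) tail, 20 were tested in this poly(A)-selected RNA. Their median was 0.49 (pairings 0.37 to 0.56), with 14 of 20 above the median gene. Past the threshold 2 were higher and 1 lower, against 1.52% and 1.54% of all genes. H1-2, a linker histone, had 1319 and 1281 against 759 and 813 (0.59 ± 0.08, limma adjusted p = 0.00436), and H2BC21 had 682 and 633 against 352 and 395 (0.68 ± 0.12, limma adjusted p = 0.0181). Neither gene's arms overlapped. The histone H3 variant H3Y1, described above, was not on either list.

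Most p53 targets lay above the median gene, though few passed the threshold. Of 29 tested, 24 lay above the median gene (82.8%) and 22 had both EXOSC5-KO libraries above both NUP93-KO libraries, against 39% of all genes. The median was 0.24 (pairings 0.18 to 0.30). CDKN1A, the cell cycle inhibitor p21, had 6997 and 6414 in EXOSC5-KO, 4317 and 4577 in NUP93-KO, and 3449 and 4929 in NONT (0.45 ± 0.05, limma adjusted p = 0.00213). BAX, which permeabilises mitochondria in apoptosis, had 3430 and 3225, 1968 and 1965, and 1815 and 2507 in the same order (0.62 ± 0.12, limma adjusted p = 0.0287). Those were the only 2 of 29 to pass, where 1.52% of all genes were higher. MDM2, the ubiquitin ligase of p53, had 1859 and 2152 against 1252 and 1202 (limma adjusted p = 0.0571), and GDF15, a secreted stress factor, had overlapping arms at 252 and 190 against 198 and 214. U2OS cells carry wild-type p53.

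Some cytoskeletal and matrix genes were higher in EXOSC5-KO than in NUP93-KO. Of 20 contractile genes controlled by serum response factor, 4 were higher and none lower, against 1.52% of all genes higher. The median was 0.12. CNN1, a smooth muscle calponin, had values of 921 and 759 in EXOSC5-KO, 422 and 506 in NUP93-KO, and 1317 and 1764 in NONT (0.71 ± 0.09, limma adjusted p = 0.00460). TAGLN, an actin-binding protein, had 5325 and 4876, 3167 and 3743, and 5289 and 8390 in the same order (0.43 ± 0.06, limma adjusted p = 0.00582). In CNN1 both knockouts lay below NONT, with NUP93-KO the lowest. The list's median relative to the median gene was −0.19 for EXOSC5-KO against NONT and −0.25 for NUP93-KO against NONT.

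Of 24 extracellular matrix genes, 2 were higher and none lower, against 1.52% of all genes higher, with a median of 0.12. COL12A1, a fibril-associated collagen, had 3710 and 2963 in EXOSC5-KO, 1659 and 1979 in NUP93-KO, and 2257 and 3929 in NONT (0.73 ± 0.10, limma adjusted p = 0.00475). The arms did not overlap, and COL12A1 in EXOSC5-KO lay within the NONT range. HMGCS1, an enzyme early in sterol synthesis, had 6976 and 6769 against 4123 and 4560 (0.52 ± 0.05, limma adjusted p = 0.00132) and was the only 1 of 22 sterol genes past the threshold. FDFT1 was the only 1 on the spike-in scale. The sterol list's median was 0.15.

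**Figure D3:**
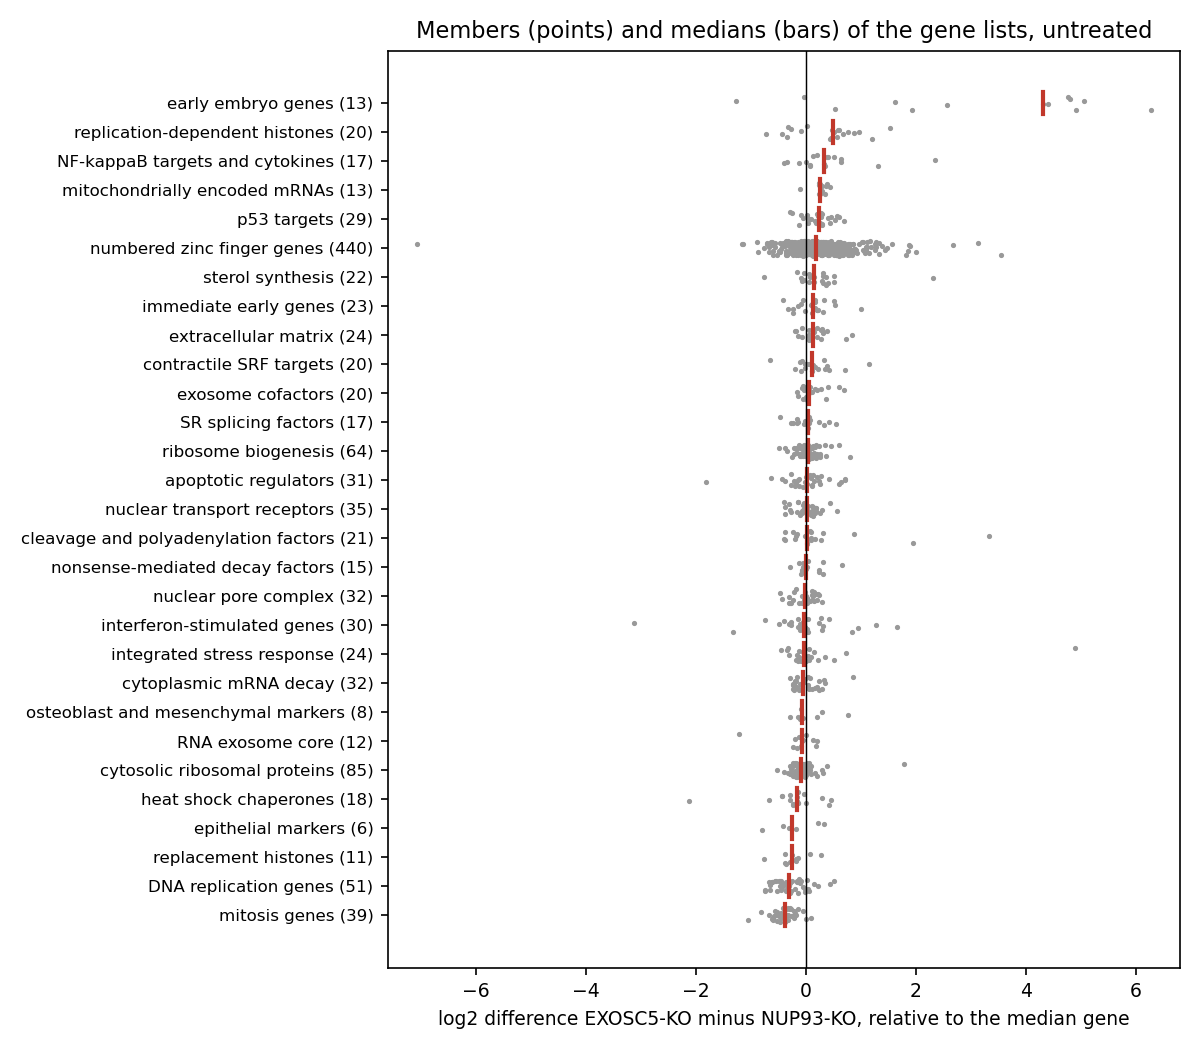
Log2 difference of EXOSC5-KO minus NUP93-KO relative to the median gene, on the spike-in scale, for the tested members of each list with at least 6 of them. Each grey point is a gene and each red bar the list's median, and the number tested stands in parentheses. Early embryo genes have their median at 4.32, and mitosis genes, at −0.38, are the lowest.

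Zinc finger genes with a numbered ZNF symbol lay above the median gene more often than below it. Of 440 tested, 305 lay above the median gene (69.3%) and the median was 0.18. Both EXOSC5-KO libraries lay above both NUP93-KO libraries in 221 (50.2%), against 39% of all genes. At the same total 2 were higher and 1 lower, against 1.52% and 1.54% of all genes. On the spike-in scale 1 was higher and 1 lower. ZNF268 had 846 and 853 in EXOSC5-KO, 249 and 271 in NUP93-KO, and 359 and 512 in NONT (1.70 ± 0.24 on the spike-in scale, limma adjusted p = 0.00367). The lower gene was ZNF526. The 13 mitochondrially encoded mRNAs had a median of 0.26 and 12 of them above the median gene, but none passed on either scale. NF-kappaB targets and cytokines had a median of 0.32 over 17 genes (pairings 0.17 to 0.37), and none passed either.

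Few genes of the complexes that the 2 guides target passed the threshold. Of 12 core exosome subunits, EXOSC5 alone was lower and none was higher, and their median was −0.08. EXOSC10 and DIS3, the nucleases of the complex, had log2 differences of 0.27 ± 0.22 and 0.35 ± 0.22 on the spike-in scale (limma adjusted p = 0.834 and 0.764), and the cap subunit EXOSC3 had 0.03 ± 0.33 (limma adjusted p = 0.990). Of 32 nuclear pore genes none passed on either scale, and their median was −0.01. The NUP93 partners NUP188, NUP205, NUP155 and NUP35 differed by 0.18 ± 0.19, 0.22 ± 0.22, 0.25 ± 0.21 and 0.28 ± 0.31 on the spike-in scale, close to the 0.15 of the median gene (limma adjusted p = 0.829 to 0.891). Among 35 nuclear transport genes, 1 was higher and 4 lower, against 1.52% and 1.54% of all genes, with a median of 0.02. Of 20 exosome cofactors, 1 was higher and none lower, with a median of 0.06.

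The other lists are given by their counts, beside 1.52% of all genes higher and 1.54% lower. Interferon-stimulated genes (30 tested, median −0.03), ribosome biogenesis genes (64, 0.03), cytoplasmic decay factors (32, −0.05), SR splicing factors (17, 0.04) and immediate early genes (23, 0.12) had no member past the threshold on either scale. Nonsense-mediated decay factors had a median of 0.01 with 1 of 15 higher. Genes of the integrated stress response had a median of −0.03 with 3 of 24 lower. Heat shock chaperones had a median of −0.16 with 2 of 18 higher and 1 lower. Of 85 cytosolic ribosomal protein genes, 12 were lower and 1 higher, and their median was −0.08. Apoptotic regulators had a median of 0.03, with 2 of 31 higher and 1 lower. Of these, BCL2L1, the survival protein Bcl-xL, had 4329 and 3811 in EXOSC5-KO against 2088 and 2386 in NUP93-KO (0.72 ± 0.11, limma adjusted p = 0.00836). BCL2L12 had 468 and 421 against 593 and 647 (−0.62 ± 0.11, limma adjusted p = 0.0194). Neither gene's arms overlapped.

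The differences varied a little with transcript structure. Relative to the median gene, 286 single-exon genes had a median of 0.13 and 1830 genes with over 20 exons 0.08, and genes with 6 to 10 exons had −0.02. Transcripts over 8000 bases had a median of 0.12 and those over 1000 and up to 2000 bases −0.05. Transcripts of over 60% GC had a median of −0.11 and those up to 40% GC 0.06. At the same total, 2.90% of genes above 60% GC were lower and 0.966% higher, and of those up to 40% GC 0.806% were lower and 1.34% higher. At the same total, the 213 lower genes had a median transcript length of 2192 bases and 53.8% GC, and the 210 higher genes 3591 bases and 47.9% GC, against 3448 bases and 48.1% GC for all tested genes. With triptolide, the median was 0.28 for single-exon genes, 0.07 above 8000 bases and −0.00 above 60% GC.

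The same 2 knockouts were also compared in the 4 triptolide libraries, which the untreated comparison did not use except for a shared estimate of the spread. The labels do not say whether treated and untreated cells came from separate transfections, so these libraries may not be an independent repeat of the knockouts. With triptolide, 82 genes were higher (0.594%) and 28 lower (0.203%) in EXOSC5-KO on the spike-in scale. Of the 37 genes higher without drug, 32 were also above NUP93-KO with triptolide, where 46.1% of all genes were, and 20 passed the threshold again. At the same total, 134 of 210 higher genes and 82 of 213 lower genes passed again in the same direction, against 4.74% and 2.08% of all genes. Because the estimate of the spread is shared, genes with a small spread pass more easily in both comparisons, so these counts are not independent. By sign alone, 195 of the 210 were above NUP93-KO with triptolide at the same total, against 55.6% of all genes, and 202 of the 213 below it, against 44.2%. PCSK5 had 2306 and 2122 in EXOSC5-KO against 341 and 401 in NUP93-KO (2.58, limma adjusted p = 3.52e-05). PCF11 had 713 and 626 against 39.6 and 25.8 (4.34, limma adjusted p = 5.49e-06). H3Y1 had 97.5 and 76.6 against 2.61 and 1.98 (4.74, limma adjusted p = 0.00122). In these 3 genes the arms did not overlap with triptolide either. In SULT1B1 they did overlap, with 16.6 and 46.2 against 23.4 and 19.9 (0.35, limma adjusted p = 0.887). TAF11L13 was at 0 and 1.63 in EXOSC5-KO and at 0 in both NUP93-KO libraries.

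**Figure D4:**
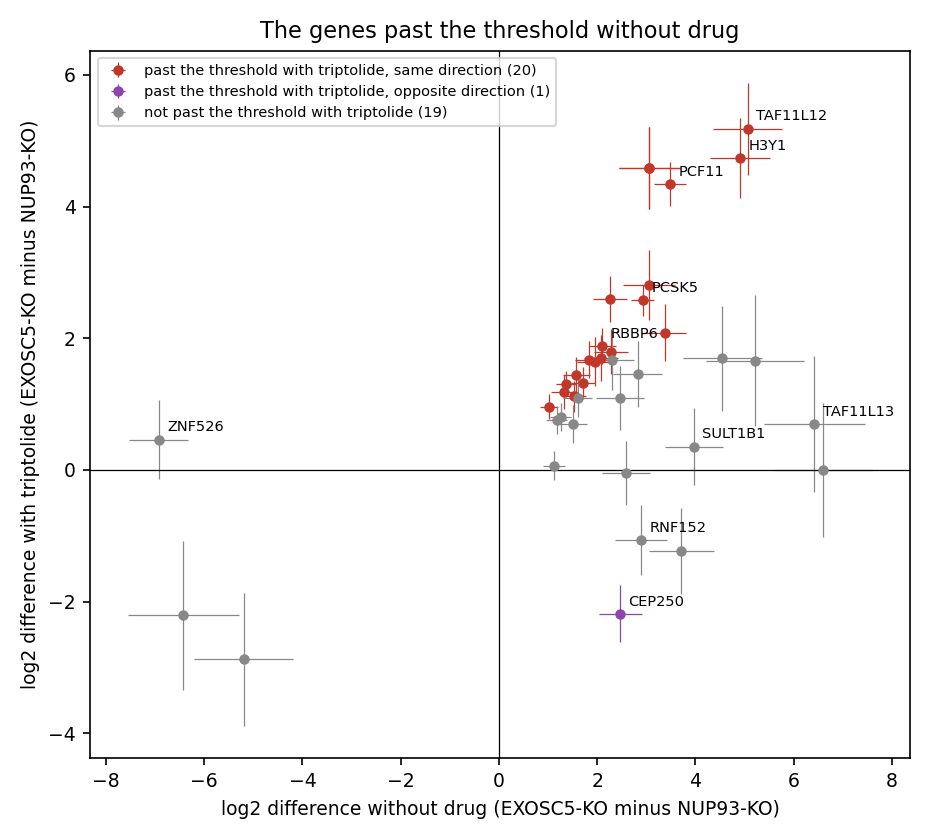
Log2 difference of EXOSC5-KO minus NUP93-KO with triptolide against that without drug, for the 40 genes past the threshold without drug, with SE bars from limma on the spike-in scale. Of the 37 higher genes, 32 lie above 0 on the vertical axis, 20 are past the threshold with triptolide in the same direction (red), and CEP250 passed in the opposite one (purple).

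Markers of the labelled and of other cell types were compared last. Summed osteoblast and mesenchymal markers reached 93062 to 106499 in EXOSC5-KO and 89403 to 99956 in NUP93-KO, led by VIM, with IBSP, SP7 and TWIST1 at 0 in both groups. VIM, the intermediate filament vimentin, was the 1 member of that list lower at the same total. Epithelial markers summed to 13368 to 14169 and 10291 to 11009, of which KRT18 made up most, and KRT18 was the 1 member higher at the same total. The other members mostly went the other way, since 4 of 6 tested epithelial markers lay below the median gene and their median was −0.25. Blood and endothelial markers summed to 18.98 to 26.0 and 52.0 to 83.3, with HBB and CD3E among those at 0 in both.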

How the data were processed

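Poly(A)-selected, strand-specific RNA-seq was available for 12 U2OS libraries. According to the study's methods and the submitters' processing notes, the authors pseudoaligned reads with kallisto 0.46.1 to the GRCh38 transcriptome with ERCC spike-in sequences, summed transcripts to genes with tximport, and divided the estimates by DESeq2 size factors from the spike-ins, which had been added per counted cell. The deposited values are therefore a spike-in scaled signal per protein-coding gene and not read counts. Only 29.7 to 32.8% of low values in the 4 libraries were whole multiples of the smallest step (tolerance 0.05), and a test made for counts was therefore left aside. An error in the spike-in amount of a library moves all of its genes together.

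Of 22471 rows in the table, 92 were ERCC transcripts and were dropped. Of the other 22379 gene IDs, 19584 matched GENCODE 44, which gave symbols, coordinates, exons and transcript lengths. The low-value filter kept genes that averaged 10 or more across all 6 libraries without drug (13811, of which 816 had no match and 474 had values identical to another row). Values were transformed as log2(value + 1), so fold changes of low genes are understated. limma 3.58.1 in R 4.3.3 (eBayes with trend, two-sided) was fitted to all 12 libraries with 6 group means, and p-values were adjusted by Benjamini-Hochberg over all genes, with a threshold of 0.05. "Same total" means that libraries were rescaled to equal sums before the same fit. Totals were compared by an exact permutation test. Named genes were the 12 largest differences past the threshold in each direction with a symbol, no overlap between the arms and a mean of at least 100 in 1 arm, both targeted genes, and up to 3 members per direction of each list. Genes said to be named after their values were seen, the read-through PEDS1-UBE2V1, the unmatched ID and the list of cleavage and polyadenylation factors fall outside that rule. Members and lists were chosen with earlier results of these data known. On simulated data for this comparison (13811 genes, 200 changed), 21% of log2 differences of 1 and 72% of those of 2 were recovered, with 5 false calls. The simulated noise was drawn separately for each gene, so these figures do not cover shifts that move all genes of a library together. Python 3.11.15, pandas 2.3.3, SciPy 1.17.1 and matplotlib 3.10.9 were used. Alternatives were other scalings, pseudocounts of 0.5 and 10, other filters, other sets of libraries, a replicate block and leaving out each library. Some results are not reported here.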

Additional observations from a re-analysis of the deposited data

Results flagged for a closer look

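For 3 genes the difference between EXOSC5-KO and NUP93-KO changed with triptolide, by a test of the change itself over all 13811 genes (0.0217% of them). Values are the change in the log2 difference, and its cause was not tested.

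CEP250 went from higher to lower in EXOSC5-KO, with a change of −4.66 (limma adjusted p = 0.00588). With triptolide its values were 25.2 and 24.6 in EXOSC5-KO and 80.1 and 170 in NUP93-KO, against 215 and 269 and 44.1 and 41.1 without drug.

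ZNF526 lost its difference, with a change of 7.39 (limma adjusted p = 0.00205). With triptolide its values were 8.20 and 13.2 in EXOSC5-KO, 10.3 and 5.05 in NUP93-KO and 3.56 and 6.204 in NONT, so the groups overlapped at low values.

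CCN1, a matricellular protein with a short-lived mRNA, changed by −2.27 (limma adjusted p = 0.0287). Without drug its values were 6159 and 6128 in EXOSC5-KO and 4228 and 4734 in NUP93-KO. With triptolide they were 50.9 and 36.0 against 130 and 178, a log2 difference of −1.81 (limma adjusted p = 0.00146).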

How the results depend on the processing

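The number of genes past the threshold depended on the scale and on the libraries that set the spread. Against 37 higher and 3 lower genes, the same total gave 210 and 213, median of ratios 199 and 231, the 4 libraries alone 218 and 10, the 6 untreated 161 and 40, the 8 knockout libraries 199 and 15, a pseudocount of 10 73 and 5, and no filter 57 and 8. Mitochondrial scaling gave 204 lower. Leaving out a library gave 7 to 76 and 2 to 5. At the same total these ranges were 39 to 87 and 49 to 72, and the 4 libraries alone gave 83 lower genes. The median difference was 0.00885 at the same total, −0.000812 by median of ratios, −0.29 by mitochondrial scaling and 0.07 to 0.21 without 1 library. The ratio of totals was 0.993, 0.807 and 1.05 to 1.16 under the last 3. The 3 genes that changed with triptolide became 8, 12, 1, 1 and 6 under the same total, median of ratios, mitochondrial scaling, the 8 knockout libraries and a pseudocount of 10, and 3 to 9 without 1 library.

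Of 1151 values for named genes under alternatives, 15 reversed in sign and the cause was not tested. With mitochondrial scaling these were NUP93 (−0.17), EXOSC3 (−0.41), EXOSC10 (−0.17), DIS3 (−0.10), NUP188 (−0.27), NUP205 (−0.22), NUP155 (−0.19), NUP35 (−0.17) and GDF15 (−0.35). EXOSC3 and GDF15 also reversed at the same total (−0.11 and −0.0503), by median of ratios (−0.12 and −0.0599) and without EXOSC5-KO replicate 1, where leaving out 1 library gave −0.0188 to 0.0792 for EXOSC3 and −0.12 to 0.294 for GDF15. Of 30 lists, 21 kept 1 sign of the median relative to the median gene in every setting. Those that did not include nuclear pore genes and exosome cofactors.

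Replicate numbers did not pair the samples, since deviations of same-numbered libraries correlated by −0.00444 between the untreated knockouts. A replicate block gave 34 higher and 3 lower genes. Depth limits genes below about 10, where a few reads decide a value.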

Other observations

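A list of 21 cleavage and polyadenylation factors was written after PCF11 and RBBP6 had been seen among the raised genes, so its counts support nothing on their own. PCF11 and RBBP6 were the 2 of 21 higher on the spike-in scale. CSTF3, a subunit of the cleavage stimulation factor, had values of 1391 and 1291 in EXOSC5-KO, 628 and 688 in NUP93-KO, and 590 and 817 in NONT, and passed at the same total (0.89, limma adjusted p = 0.00836) but not on the spike-in scale (limma adjusted p = 0.113). The list's median was 0.02 relative to the median gene, with 13 of 21 above it.

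MAPK10, the neuronal JNK kinase JNK3, had values of 197 and 247 in EXOSC5-KO, 52.7 and 59.8 in NUP93-KO, and 41.5 and 39.2 in NONT (1.96 ± 0.37, limma adjusted p = 0.0271). Leaving out any 1 of the 4 knockout libraries ended this call, with limma adjusted p up to 0.361. ENSG00000275246, which matched no symbol, was at 95.6 and 95.2 in EXOSC5-KO and listed at 0 in the 4 other untreated libraries (limma adjusted p = 0.00597). This ID reached the low-value filter only through EXOSC5-KO, so it had to differ. Without either EXOSC5-KO library its limma adjusted p rose to as much as 0.109.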
